A study of Mus musculus with 7 samples.

Results

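The 7 Jun and Fos genes encode the subunits of the transcription factor AP-1, and JUNB, the protein mapped here, is the product of one of them. Peaks of 4 JUNB libraries were joined wherever they overlapped by at least 1 bp. Each joined region was given, by its median summit, to the mouse protein-coding gene with the nearest end within 100 kb. The genes were chosen by name, as Jun, Junb, Jund, Fos, Fosb, Fosl1 and Fosl2, and they owned 23 of 12655 regions.

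JUNB was mapped by CUT&RUN, in which a nuclease tethered to an antibody frees the DNA around the bound protein. The cells were iMGT-Myh6-eGFP-MEF, a mouse embryonic fibroblast line with a doxycycline-inducible set of Mef2c, Gata4 and Tbx5 (MGT), which drives fibroblasts toward cardiomyocytes, and an eGFP reporter of the cardiac myosin gene Myh6. All libraries came from this line, received doxycycline at 1 µg/mL and were taken on day 1 of MGT expression. The groups were siChst7, an siRNA against a chondroitin sulfate sulfotransferase gene (2 JUNB libraries), and siControl, a control siRNA (2 JUNB libraries). The other 3 samples are IgG libraries, 2 siChst7 and 1 siControl, and were not analysed here; a background level for the antibody is therefore not given. The titles and treatment labels name siChst7 and set the groups here, while the labels' protocol text lists siJunb, siH1f0 and siControl and makes no mention of siChst7. Which siRNA the siChst7 cells received rests on the titles and treatment labels. The level of JUNB protein was not at hand. Markers of the cell type could not be checked by expression.

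AP-1 is a dimer. Jun proteins pair with each other or with a Fos protein, whereas Fos proteins need a Jun partner to bind DNA. Dimers bind the 7-base TPA response element (TGACTCA, or TGAGTCA on the other strand) and, with some partners, the cAMP response element (TGACGTCA). The genes are induced quickly by growth factors and stress through MAP kinases, and Jun and Fosl1 are textbook cases of AP-1 genes that AP-1 itself acts on. In fibroblasts AP-1 drives proliferation, matrix and wound genes.

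The lists differed in length. They held 10163 and 4735 peaks in siChst7 replicates 1 and 2, against 6469 and 5827 in siControl replicates 1 and 2. A region missing from a list may hold signal below that list's threshold, which lay near a −log10 q of 2 in every list. The read depth behind each list is unknown here. A library has 30 M reads by its label. The titles call the replicates biological, without saying whether they came from separate cultures.

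Promoter sequences show what lies at the starts of these genes. RefSeq promoters (GRCm38.p6, from 250 bases before to 50 bases after the start) were found for 6 of the 7 genes, all but Fosl1. They were searched on both strands for 5 motifs, of which only the last lies within another, the cAMP response element: TGACTCA, TGACGTCA, TGACATCA (the AP-1 element known from the Jun promoter), CTATTTTTA (from the MEF2 site known in the Jun promoter, of interest because Mef2c is among the induced factors) and the 5 bases TGACG. Of 21263 promoters of protein-coding genes, 4.66% held TGACTCA, 2.23% TGACGTCA, 3.66% TGACATCA, 0.400% CTATTTTTA and 23.6% TGACG. The promoters of Jun, Junb, Fos, Fosb and Fosl2 are shown 5′ to 3′ with matches in capitals. Jun, Junb and Fos are known self-regulated or rapidly induced genes, Fosb is the gene whose promoter a JUNB region overlapped, and Fosl2 has a region that ends beside it.
Jun, chr4:95052173-95052472, minus strand: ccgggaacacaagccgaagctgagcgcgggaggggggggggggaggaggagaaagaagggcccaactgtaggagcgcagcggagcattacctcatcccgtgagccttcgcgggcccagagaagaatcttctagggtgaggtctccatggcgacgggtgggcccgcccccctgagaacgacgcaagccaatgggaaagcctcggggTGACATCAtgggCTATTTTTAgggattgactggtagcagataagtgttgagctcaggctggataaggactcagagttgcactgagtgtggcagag
Junb, chr8:84978699-84978998, minus strand: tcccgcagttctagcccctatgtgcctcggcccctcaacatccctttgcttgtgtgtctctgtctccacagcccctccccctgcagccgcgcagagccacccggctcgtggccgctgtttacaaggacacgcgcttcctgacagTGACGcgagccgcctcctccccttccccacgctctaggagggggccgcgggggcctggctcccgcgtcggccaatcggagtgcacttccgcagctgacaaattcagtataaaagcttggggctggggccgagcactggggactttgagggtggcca
Fos, chr12:85473640-85473939, plus strand: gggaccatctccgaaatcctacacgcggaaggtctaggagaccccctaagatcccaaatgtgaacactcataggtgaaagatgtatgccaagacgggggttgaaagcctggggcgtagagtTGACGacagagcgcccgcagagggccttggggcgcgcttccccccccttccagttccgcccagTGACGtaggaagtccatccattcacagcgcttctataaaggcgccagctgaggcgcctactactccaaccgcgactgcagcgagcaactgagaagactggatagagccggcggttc
Fosb, chr7:19309996-19310295, minus strand: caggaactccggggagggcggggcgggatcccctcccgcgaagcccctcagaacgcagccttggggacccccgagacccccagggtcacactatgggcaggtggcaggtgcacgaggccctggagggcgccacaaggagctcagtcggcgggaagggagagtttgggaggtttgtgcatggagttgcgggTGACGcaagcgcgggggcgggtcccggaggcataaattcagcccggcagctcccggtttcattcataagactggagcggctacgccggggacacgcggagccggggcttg
Fosl2, chr5:32136222-32136521, plus strand: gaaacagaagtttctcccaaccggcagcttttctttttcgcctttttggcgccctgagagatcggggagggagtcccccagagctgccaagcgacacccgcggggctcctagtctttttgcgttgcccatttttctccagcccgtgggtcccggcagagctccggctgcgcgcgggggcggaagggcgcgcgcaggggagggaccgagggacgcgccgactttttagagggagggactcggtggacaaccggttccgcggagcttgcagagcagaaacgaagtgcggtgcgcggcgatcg

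None of the 6 promoters held TGACTCA or TGACGTCA in this window. Jun held TGACATCA starting 45 bases before the start site and the MEF2 letters 33 bases before it. The TGACG letters stood 106 bases before the start of Junb, 60 before Fosb, and 129 and 66 before Fos. Fosl2 and Jund held none of the 5 motifs. A match is a description of letters and marks no bound site, and a missing match says only that these letters are not in the window.

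A JUNB region overlapped 1 of the 6 promoter windows, that of Fosb, and it was called in siControl replicate 2 alone. The nearest region lay 14 bp from the Fosl2 window, 187 bp from the Junb window and 443 bp from the Jund window. It lay 16398 bp from the Jun window and 23471 bp from the Fos window. The promoters of Jun and Fos, with 2 matches each, were the farthest from a called JUNB region. Both Fos matches were the short TGACG letters. Jun and Fos also had the longest stretches of genome nearest to a member, 138 and 114 kb. A link between matches and distance was not tested. Genome sequence away from promoters was not used here, so motifs inside the regions were not searched.

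Every one of the 7 genes owned at least 1 region in some list, against 25.1% of 21900 protein-coding genes. A region called in all 4 lists, termed common below, was owned by 4 of 7 genes (Jun, Fosb, Fosl1 and Fosl2), against 8.33% of protein-coding genes. In siChst7 4 of 7 genes had a region called in both libraries, against 11.3% of genes, and in siControl 4 of 7, against 11% of genes. Junb, Jund and Fos owned no common region. Joining peaks by 50% reciprocal overlap left 2 of 7 genes with a common region, against 6.16% of genes, and windows of 100 bp on each side of the summits left 2 of 7, against 6.07%. The genes were picked with earlier results of these data known, and these counts are therefore a description.

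**Figure D1:**
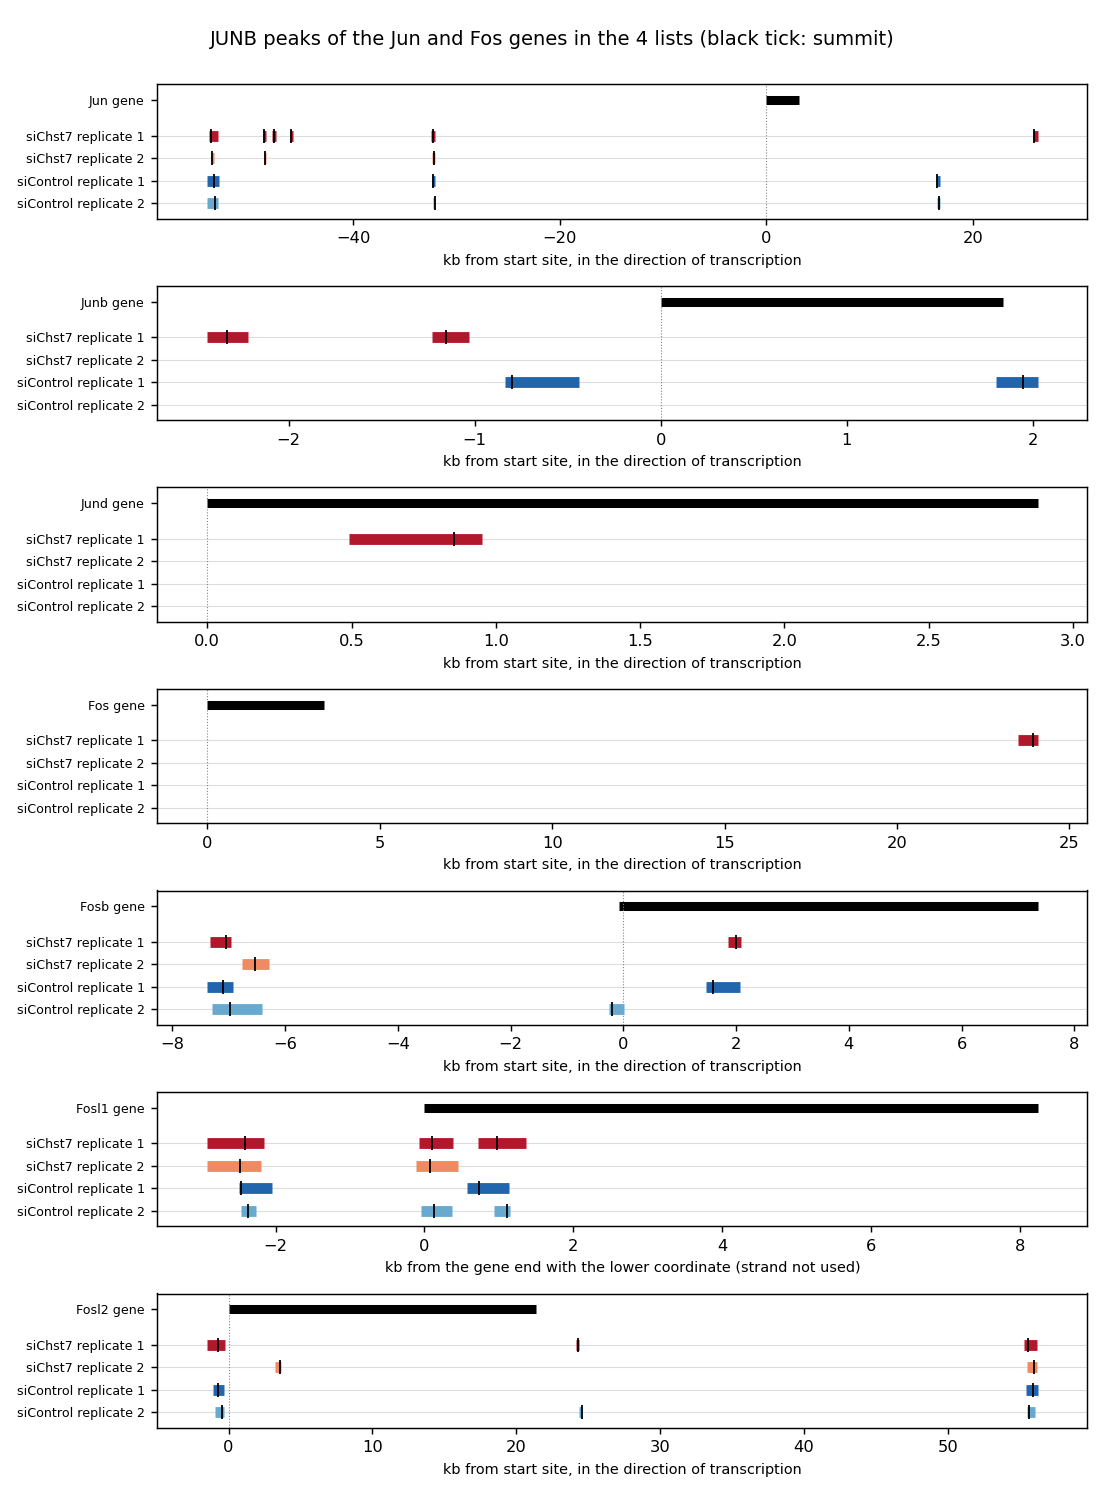
Peaks of each list at each gene, in kb from the start site in the direction of transcription (for Fosl1, from the gene end with the lower coordinate). Coloured bars are peaks, black ticks their summits, and the thick black bar is the gene; common regions stand far from Jun and Fosl2 and close to Fosl1 and Fosb.

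Among the Jun genes, Jun had the most regions. Jun encodes c-Jun, the main activating partner of Fos proteins, and its gene (chr4:95049036-95052222, minus strand, mm10) owned 7 regions, 2 of them common. It had 6 and 3 regions in siChst7 replicates 1 and 2, against 3 and 3 in siControl replicates 1 and 2. At least 7 regions were owned by 0.699% of protein-coding genes, and at least 2 common regions by 1.87%. The libraries held equal numbers apart from siChst7 replicate 1, the longest list.

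None of the Jun regions lay at the gene itself. Of the 7, 5 stood upstream of the start site, and 4 of these gathered in 8.29 kb between 46.0 and 53.5 kb upstream. The common region closest to the start lay 32.2 kb upstream (chr4:95084249-95084621). It had fold enrichments of 7.12 and 6.31 in the siChst7 lists, against 5.93 and 4.42 in the siControl lists, in replicate order. The other common region lay 53.5 kb upstream (chr4:95105207-95106331), with 6.61 and 6.31 in the siChst7 lists and 7.73 and 6.83 in the siControl lists. Fold enrichment is the authors' value for a peak over local background in its own list, and it is not compared between lists.

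A region 48.6 kb upstream of Jun (chr4:95100596-95100895) was called in both siChst7 lists, at 12.7 and 7.13, and in neither siControl list. Its peak in siChst7 replicate 1 had the highest fold of the 18 peaks of the 7 genes in that list. A region 13.5 kb past the other end of Jun (chr4:95035365-95035775) was called in both siControl lists, at 6.44 and 6.83, and in neither siChst7 list. The remaining 3 Jun regions, at 46.0 and 47.6 kb upstream and 22.8 kb past the gene, stood in siChst7 replicate 1 alone, with folds of 4.61 to 6.92.

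Junb, the gene of the mapped protein, owned JUNB regions, but none that 2 lists shared. A region 6.87 kb from Junb, nearer to Hook2 and so not owned by Junb, was called in siChst7 replicate 1 and siControl replicate 1. JUNB is often a weaker activator than c-Jun and can restrain it. The gene (chr8:84976909-84978748, minus strand) owned 4 regions, each in 1 list. Those 1.16 and 2.33 kb upstream of the start stood in siChst7 replicate 1, with folds of 7.12 and 5.77. Those 0.80 kb upstream and 0.106 kb past the gene's other end stood in siControl replicate 1, with folds of 4.58 and 5.15. Replicate 2 had 0 regions in siChst7 and 0 in siControl. The 4 regions were 203 to 400 bp wide. At least 4 regions were owned by 3.21% of genes.

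Jund and Fos had a single region each, in siChst7 replicate 1 alone. Jund, the steadily expressed Jun gene (chr8:70697739-70700616, plus strand), had it inside the gene, 0.854 kb past the start site, at a fold of 8.08. Fos, the classical serum-induced early gene (chr12:85473890-85477274, plus strand), had it 20.6 kb past its end (chr12:85497410-85497966), at a fold of 7.50. In all, 29.2% of the 12655 regions were called in siChst7 replicate 1 alone, as were 7 of the 23 regions here (30.4%).

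Fosl1 carried the densest set of shared regions among the Fos genes. Fosl1 encodes FRA-1, a Fos protein without the strong activation domain of c-Fos and a known AP-1 target. The gene (chr19:5447698-5455938) owned 3 regions, each in 3 or 4 lists, all within 2.5 kb of the gene end with the lower coordinate. It had 3 and 2 regions in siChst7, against 2 and 3 in siControl. At least 3 regions were owned by 5.96% of genes.

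The common region of Fosl1 lay 2.44 kb outside that end (chr19:5444780-5445645). Its folds were 10.4 and 6.31 in the siChst7 lists and 5.48 and 6.82 in the siControl lists. The summits of its 4 peaks fell within 100 bp. A region 0.108 kb inside the gene (chr19:5447581-5448149) had 7.50 and 7.57 in siChst7 and 6.08 in siControl replicate 2, with summits within 50 bp. A region 0.981 kb inside (chr19:5448267-5449063) had 9.81 in siChst7 replicate 1, against 5.93 and 6.08 in siControl. The first of these was missing from siControl replicate 1, and the second from siChst7 replicate 2.

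Fosb had its common region upstream. Fosb encodes a Fos protein induced later than c-Fos whose short splice form is long-lived. The gene (chr7:19302696-19310118, minus strand) owned 3 regions, with 2 and 1 in siChst7, against 2 and 2 in siControl. The common one stood 7005 bases upstream of the start site (chr7:19316326-19317425). Its folds were 9.23 and 7.57 in siChst7 and 8.38 and 5.59 in siControl. The 4 peaks shared 0 bases, because the siChst7 replicate 2 peak joined the others only through the siControl replicate 2 peak, and their summits spread over 563 bp.

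The region at the Fosb start (chr7:19310040-19310302) had a fold of 5.59 in siControl replicate 2. Its summit lay 198 bases before the start site. The third region, 1.80 kb inside the gene, had 4.04 in siChst7 replicate 1 and 7.09 in siControl replicate 1. The value of 4.04 was the lowest fold of the 18 peaks of these genes in its list.

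Fosl2 had regions at its start and well past its end. Fosl2 encodes FRA-2, a Fos protein prominent in fibroblasts and fibrosis. The gene (chr5:32136472-32157840, plus strand) owned 4 regions, with 3 and 2 in siChst7, against 2 and 3 in siControl. Its common region lay 34.4 kb past the gene (chr5:32191767-32192709). The folds were 11.7 and 8.13 in siChst7 and 9.58 and 5.97 in siControl, and all 4 peaks shared 566 bp.

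The region 0.715 kb before the Fosl2 start (chr5:32134994-32136208) was, at 1215 bp, the widest of the 23. It had a fold of 7.66 in siChst7 replicate 1, against 10.3 and 6.57 in the siControl lists, and was missing from siChst7 replicate 2. A region 3.05 kb past the gene came from 2 peaks, in siChst7 replicate 1 (6.64) and siControl replicate 2 (4.97), that overlapped by 1 bp. A region 3.61 kb inside the gene had 5.46 in siChst7 replicate 2 alone.

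The shares of the 23 regions over the lists were close to those of all regions. Common were 5 of 23 (21.7%), against 22% of all regions, and 11 of 23 (47.8%) were in 1 list, against 46.7%. With 50% reciprocal overlap 2 of 31 regions (6.45%) were common, against 12.0% of all regions, and at equal list length 3 of 16 (18.8%), against 27.2%. Of the 11 regions in 1 list, 1 was in siChst7 replicate 2 alone, 2 in siControl replicate 1 alone and 1 in siControl replicate 2 alone, against 3.36%, 8.31% and 5.89% of all regions. The count of siChst7-only regions was 1, the one 48.6 kb upstream of Jun, against 3.88% of all regions. The count of siControl-only regions was also 1, the one past Jun, against 1.6%. The siChst7-only count was 8 without siChst7 replicate 2, and 2 without siChst7 replicate 1 or siControl replicate 2. The 8 take in the 7 regions called in siChst7 replicate 1 alone. Such regions were 30.4% of the regions here and 29.2% of all regions. The siControl-only count was 3 without siChst7 replicate 1 or siControl replicate 2, and 2 without siControl replicate 1. In the 4 lists together, 3 regions were in 3 lists and 2 regions in 1 list of each group. Common regions here were 373 to 1125 bp wide, against a median of 925 bp over all common regions.

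The number of Jun and Fos regions was highest in the longest list and lowest in the shortest. There were 18 and 8 in siChst7 replicates 1 and 2 (mean 13 ± 7.07, SD, n = 2), against 11 and 11 in siControl (mean 11 ± 0, SD, n = 2). Per 1000 regions of the library they were 1.79 and 1.73 in siChst7 (mean 1.76 ± 0.0393, SD, n = 2) and 1.74 and 1.94 in siControl (mean 1.84 ± 0.146, SD, n = 2). The ranges overlap on both scales. At equal list length there were 11 and 8 regions in siChst7, against 9 and 9 in siControl. The difference, siChst7 minus siControl, was 2 regions and −0.0784 per 1000. Without siChst7 replicate 1 the first was −3, without siChst7 replicate 2 it was 7, and without siControl replicate 2 the second was 0.0266. The numbers per 1000 regions did not overlap under 3 other ways of giving regions to genes. With genes within 20 kb they were 0.995 and 0.867 in siChst7, against 1.26 and 1.41 in siControl. With gene bodies and 5 kb on each side they were 0.995 and 0.651 in siChst7, against 1.11 and 1.24 in siControl. With every region within 50 kb of a member they were 3.28 and 2.82 in siChst7, against 3.63 and 3.54 in siControl. The plain counts of regions overlapped under each of these 3 ways. Within 20 kb the counts were 10 and 4 in siChst7, against 8 and 8 in siControl. With gene bodies they were 10 and 3 against 7 and 7, and within 50 kb 33 and 13 against 23 and 20. The divisor stayed at all regions of the library, while only regions inside the windows were counted. The numbers per 1000 therefore also vary with how many regions of a list lie far from genes. The 3 ways share regions, and the share of other genes that part in this way was not computed. A difference particular to these genes is therefore not shown. With 2 libraries a group, a two-sided exact permutation test cannot give a p below 0.333, so a difference of either size could not pass.

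**Figure D2:**
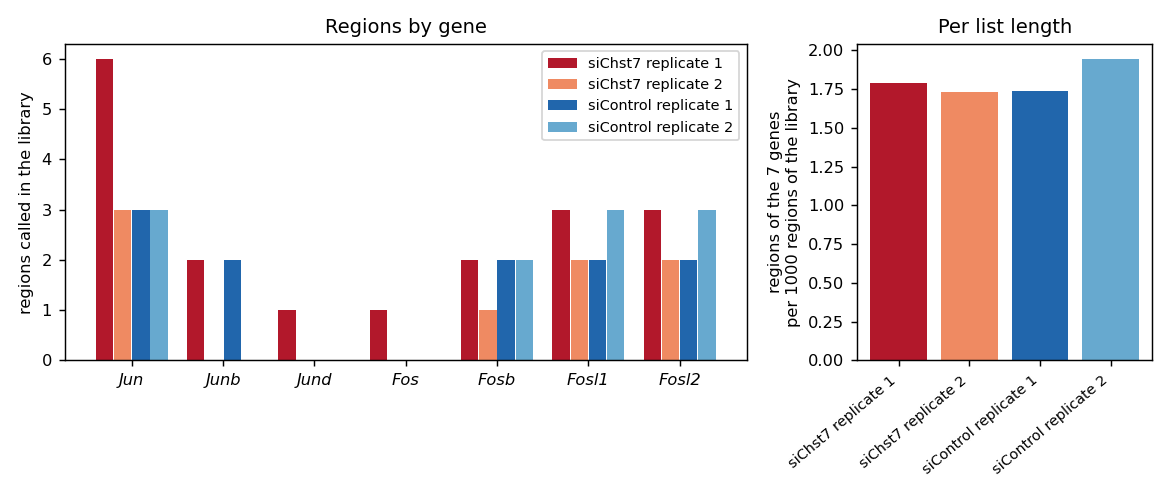
Left, number of regions of each gene called in each library. Right, regions of the 7 genes per 1000 regions of the library; the excess of siChst7 replicate 1 on the left (18 regions against 8 to 11) is absent on the right, where the 4 libraries lie between 1.73 and 1.94.

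The peaks of these genes were of middling strength within their lists. Their folds ran from 4.04 to 12.7 and from 5.46 to 8.13 in the siChst7 lists, and from 4.58 to 10.3 and from 4.42 to 6.83 in the siControl lists. Their median was 7.31 and 6.72 in the siChst7 lists, against 6.44 and 6.08 in the siControl lists, where the median of the whole list was 6.61, 6.65, 6.80 and 6.62 in the same order. Above the list's own median were 13 of 18, 4 of 8, 5 of 11 and 3 of 11 peaks. By q, 0 of 48 were in the best 10% of a list. In siChst7 replicate 1 the best was the peak 48.6 kb upstream of Jun, at rank 1216 of 10163.

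**Figure D3:**
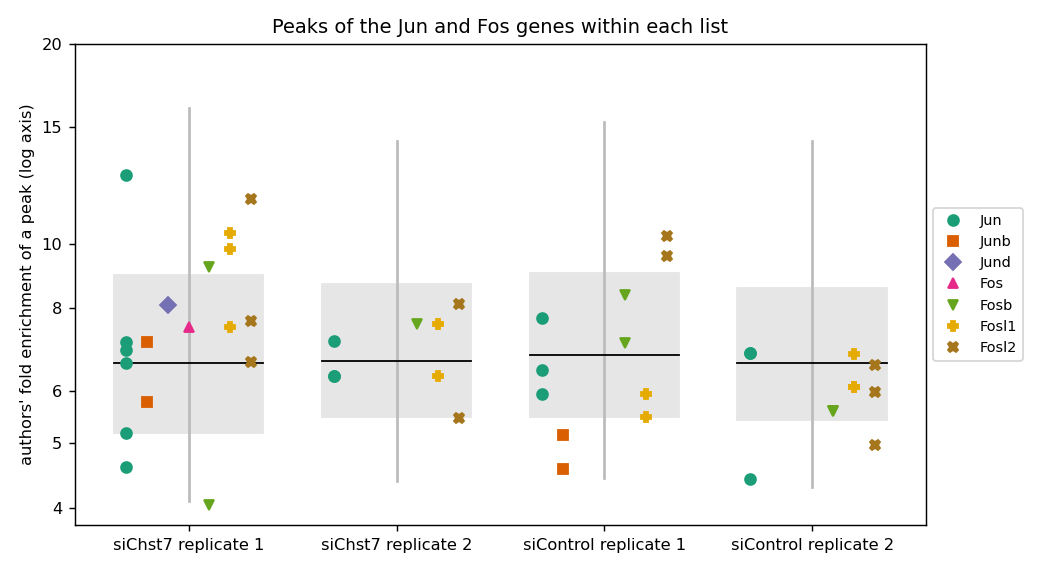
The authors' fold enrichment (log axis) of each peak of the 7 genes, by list, beside the whole list (grey box, 25th to 75th percentile; black line, median; grey line, 5th to 95th percentile). Points lie around the list medians of 6.61 to 6.80 and none passes the 95th percentile; peaks of 1 gene with equal fold overlap.

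The genome around the genes differed in length. The stretch nearest to a gene and within 100 kb of it was 138 kb for Jun, 114 kb for Fos and 84.6 kb for Fosl2. It was 27.7 kb for Fosb, 15.1 kb for Fosl1, 12.7 kb for Jund and 7.90 kb for Junb, which sit among close neighbours. Per 100 kb of this stretch the genes owned 50.6 (Junb), 19.8 (Fosl1), 10.8 (Fosb), 7.86 (Jund), 5.07 (Jun), 4.73 (Fosl2) and 0.880 (Fos) regions, against 0.649 over all protein-coding genes. The value for Junb rests on 4 regions, each called in 1 list. Common regions per 100 kb were 6.61 for Fosl1, 3.62 for Fosb, 1.45 for Jun and 1.18 for Fosl2, against 0.142 over all genes. They were 0 for Junb, Jund and Fos. How far the length of the stretch sets these values was not tested. With 1 to 7 regions a gene, neighbours in this order are not told apart by these counts, and Jun and Fosl2 differ by less than 1 region per 100 kb.

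Several regions lay near gene ends. Within 1 kb of a gene end were 7 of 23 (30.4%), against 12.1% of all regions, and 9 lay beyond 10 kb. None of these 7 was common. Those of Junb, Jund and Fosb were each called in 1 list, and those of Fosl1 and Fosl2 in 3 lists. By the nearest-end rule, genes with short stretches, such as Junb and Jund, can own only regions close to them. Fosl1 and Fosb also owned regions within 1 kb, with stretches of 15.1 and 27.7 kb, below the median of 46.4 kb over all protein-coding genes. Fosl2 owned 1 such region with a stretch of 84.6 kb. The share over all regions includes 1639 regions beyond 100 kb of a gene end. The reason for the difference in shares was not tested. The farthest region was the one 53.5 kb upstream of Jun. There were 0 regions beyond 100 kb that were nearest to one of these genes.

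The nearest-end rule left 23 further regions within 50 kb of these genes to neighbours, 4 of them common. Fosb had 9 such regions, Jund 5, Fosl1 5, Junb 2, Jun 1, Fosl2 1 and Fos 0. A common region 15.5 kb from Jund was nearest to Lsm4 (chr8:70682056-70682952), with folds of 5.87 to 14.7. A common region 17.8 kb from Fosl1 was nearest to AI837181 (chr19:5429461-5430683), with 8.23 to 12.3. Common regions 34.4 and 49.7 kb from Fosb were nearest to Ercc1 and Ppp1r13l. The closest region given to a neighbour lay 2.12 kb from Jund and 1.42 kb from Iqcn, and was in 3 lists. Around Fos, no further region lay within 50 kb.

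The 4 counts of Jun, 6, 3, 3 and 3, were most like those of Lrrfip1, Map4, Tnrc6a, Col6a3 and Septin11. Likeness was the Euclidean distance between the numbers of regions in the 4 libraries, and it was 1 for each of these, that is, 1 region more or fewer in 1 library. No gene had the same 4 counts.

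Other genes of the pathway owned common regions to different extents. Of 10 AP-1 partner genes, 5 owned one, namely Atf3 and Mafk with 2 each and Jdp2, Maf and Maff with 1 each, against 8.33% of protein-coding genes. Of 14 MAP kinase genes that signal to AP-1, 2 did, Map2k3 with 2 and Map3k5 with 1. Of 11 genes for factors that act on Fos and Jun promoters, 4 did. These were Elk3 and Mef2d with 2 each, and Mef2a and Mrtfa, a cofactor of serum response factor, with 1 each. Srf and Elk1 had none in any list.

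Genes that restrain or turn over AP-1 had 5 of 10 with a common region. Dusp1, which dephosphorylates MAP kinases, had 4, with folds up to 28.3. Dusp6 had 2, and Dusp4, Dusp5 and Zfp36, which destabilises early mRNAs, had 1 each. Of 15 textbook AP-1 targets, 4 did, among them Cd44 with 6, Ccl2 with 3 and Ccnd1 with 1. The stromelysin and gelatinase genes Mmp3, Mmp10 and Mmp9 had none in any list. Marker lists gave 4 of 8 fibroblast, 0 of 6 macrophage, 2 of 4 endothelial and 3 of 4 epithelial genes. JUNB regions near a marker gene do not show which cells were present. The lists are short and were not tested against each other.

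**Figure D4:**
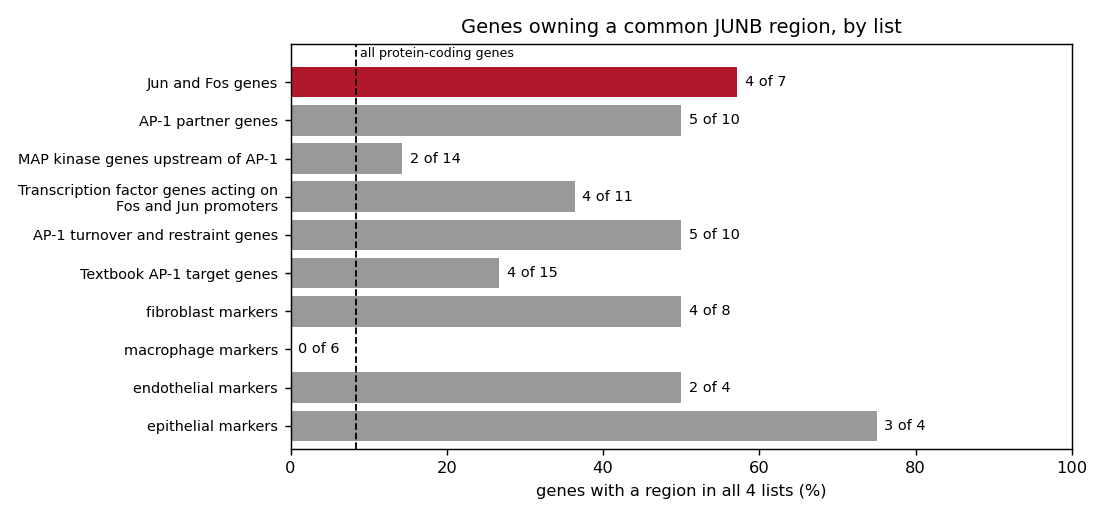
Share of the genes of each list that owned a JUNB region in all 4 lists, with counts. The Jun and Fos genes stood at 57.1% (4 of 7), the lists between 0% and 75%, and the dashed line marks the 8.33% of all protein-coding genes.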

How the data were processed

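The files used were 4 peak lists, 1 per JUNB library, matched to libraries by their peak names. Per the submitters' processing notes, the authors used Bowtie2, MACS3 and the build mm10; versions, settings and any IgG control for peak calling are not given in the sources used here. The deposited columns hold a fold enrichment (a ratio over local background), p-value and q-value as −log10, a score, which was not used, and a summit. Peaks overlapping by 1 bp were joined; regions counted as called where a list had a peak. Genes came from a RefSeq table of GRCm38.p6, the assembly of mm10, with 21900 protein-coding genes; strand came from the RefSeq promoter table. Coordinates are 1-based.

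The genes, lists and rules were chosen with earlier results of these data known. The named genes were all 7 members, up to 5 genes per other list with the most common regions, and the 5 genes nearest to Jun by their 4 counts; an item that this rule names is not reported here. Groups were compared over libraries by exact permutation. Shares over all regions or genes stand beside counts in place of list tests. Joining and assignment were tested on simulated peaks with summits at a gene end. The simulation held no chained peaks and none far from a gene, so it does not cover such regions. The planned motif search in regions needs genome sequence and was replaced by promoters. Read counts were not used here. Software was Python 3.11.15, NumPy 2.4.6, pandas 2.3.3, SciPy 1.17.1 and Matplotlib 3.10.9.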

Additional observations from a re-analysis of the deposited data

How the results depend on the processing

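The count of 5 common regions of 23 became 2 of 31 (6.45%) with 50% reciprocal overlap, 3 of 29 (10.3%) with summits and 100 bp on each side, and 3 of 16 (18.8%) at equal list length, against 12.0%, 12.5% and 27.2% of all regions under the same settings. These 3 shares were below those of all regions. The count was 2 with genes within 20 kb, 1 with gene bodies and 5 kb, and 8 when any region within 50 kb of a member counted. For these 3 rules the shares over all regions and genes are not at hand. Whether the changes exceed those of other genes is therefore not shown. The 4 genes with a common region became 2, 2, 2 and 1 with reciprocal overlap, summits, 20 kb and gene bodies. Each of the 5 common regions fell below 4 lists under at least 1 setting. With reciprocal overlap the Jun region 53.5 kb upstream fell to 3 lists, and those of Fosb and Fosl1 to 2. With summit windows that of Fosb fell to 3 and that of Fosl2 to 2. At equal list length both Jun regions fell to 3. The Jun region 32.2 kb upstream also fell to 3 when the q cutoff was 0.001, and when peaks with folds under 5 were dropped. The siChst7-only count of 1 was 2 with reciprocal overlap and 0 with 20 kb or gene bodies, and the siControl-only count of 1 was 0 with gene bodies and 2 within 50 kb. Within 2.5 kb of a gene end were 11 of 23 regions (47.8%), against 19.4% of all regions.

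The difference in regions per library, 2, was 0.5 at equal list length and turned to −1 within 20 kb and −0.5 with gene bodies. The difference per 1000 regions, −0.0784, turned to 0.0183 at a q of at most 0.001, 0.0679 at a fold of at least 5 and 0.0983 at equal list length. It was larger in the same direction at −0.408 within 20 kb, −0.349 with gene bodies and −0.534 within 50 kb. Leaving out 1 library gave −3 to 7 regions, −0.179 to 0.0266 per 1000, 4 to 7 common regions, 1 to 8 siChst7-only and 1 to 3 siControl-only regions, and 3 to 4 genes with a common region. Those class counts need fewer lists when a library is left out. Within 20 kb a common region was owned by 2 of 10 AP-1 partner and 1 of 14 MAP kinase genes. Among promoter factor, turnover and endothelial genes, 2 of 11, 3 of 10 and 1 of 4 owned one. The share of all genes within 20 kb is not at hand. With a replicate block the differences were 2 and −0.0784, which equal the main values by construction. Replicates 1 and 2 gave differences of 7 and −3 regions, and of 0.0527 and −0.210 per 1000. The correlation of replicate differences between groups was −0.0324 over 12655 regions, and the labels tie no libraries together by number. The motif windows of 50 and 250 bp around summits were not run, for want of genome sequence. The cause of these changes was not tested.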

Other observations

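Many peaks of these genes had exactly the same fold as other peaks of their list. Among 10163 and 4735 peaks of the siChst7 lists there were 1410 and 845 distinct folds, and among 6469 and 5827 peaks of the siControl lists 1139 and 1050. All 18 and 8 peaks of the Jun and Fos genes in the siChst7 lists shared their fold with another peak of the list, as did 11 of 11 and 10 of 11 in the siControl lists. Both common Jun regions and the common Fosl1 region stood at 6.31 in siChst7 replicate 2. Across each whole list, 90.6% to 93.5% of peaks shared their fold with another.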
